A study of Mus musculus with 4 samples.

Results

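Chromatin peaks from CUT&Tag with an antibody against Ruvbl2 were examined at 30 genes that mark the erythroid and the megakaryocyte lineage, 15 of each, among 21887 protein-coding genes. The genes were taken from a fixed list and matched by symbol in a RefSeq gene table of GRCm38.p6, with coordinates equal to those of mm10, and all 30 were found. In CUT&Tag an antibody directs a transposase to chromatin, so that DNA near the bound protein is cut and sequenced. Ruvbl2 is an AAA+ ATPase of several chromatin remodelling complexes. Haematopoietic stem cells (HSC, CD48-negative, CD150-positive LSK cells) were sorted from bone marrow of Nup214fl/+ mice, which carry a floxed allele of Nup214. Leukaemia stem cells (LSC, sorted as c-Kit+, CD34+ and CD16/32+ cells without lineage markers or Sca-1) came from Nup214fl/+ mice with MLL-AF9-driven leukaemia, so both groups shared the Nup214 genotype. The labels mention no Cre for these animals and give no age. They name the cell type as haematopoietic stem cell for all 4 libraries, and the groups were taken from the titles. The 2 libraries of a group are called HSC 1 and HSC 2, and LSC 1 and LSC 2, after the replicate numbers in the titles. The labels give neither the sex nor the number of the animals. Of every 10000 peaks, 91.8 in HSC 1 and 94.2 in LSC 1 lay on the Y chromosome, against 0.561 in HSC 2 and 1.24 in LSC 2, so by this measure replicates 1 and 2 of a group were not taken from the same animals. The p-values measure the spread between these libraries, in which Y content, peak naming and replicate number cannot be told apart.

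Erythrocytes and platelets descend from stem cells through a shared megakaryocyte-erythroid progenitor. In that progenitor and its descendants the GATA factor Gata1 acts with Klf1 at erythroid genes, whose products carry oxygen and build the red cell membrane skeleton, and with ETS factors at megakaryocyte genes, whose products fill platelet granules and bind fibrinogen, collagen and von Willebrand factor. Both programmes are largely complete only in maturing cells, and the LSC gate selects a granulocyte-monocyte progenitor phenotype, in which neither lineage is a usual outcome. Gata1 binds the letters AGATAA or TGATAA, and Klf1 binds CACCC boxes such as CACACCC.

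A gene was called listed in a library when one of that library's 20000 strongest peaks, by the authors' −log10 p-value, overlapped the gene body or the 1 kb on either side by at least 1 bp. Lists of equal length were used because the 4 deposited lists differed in size, from 161655 to 286107 peaks. The fold values below are the authors' own, the pileup at a peak's summit over the background of the same library, and they rank peaks within a library but do not measure change between libraries. The weakest listed fold was 22.7 for HSC 1, 12.7 for HSC 2, 28.4 for LSC 1 and 18.2 for LSC 2. The lists hold no read totals, and the sequencing depth is unknown. The replicate 2 libraries stood apart from the replicate 1 libraries in how their strong peaks lay: of the listed peaks at protein-coding genes, each counted once per gene it overlapped, 36.5% and 38.0% at replicate 2 had the summit within 1 kb of an end of that gene, against 19.1% and 19.2% at replicate 1. Peak names also follow 1 scheme for both replicate 1 libraries and another for both replicate 2 libraries, and comparisons are therefore given at each replicate number. The protocol in the labels names a goat anti-rabbit secondary antibody, and they do not give the host species of the Ruvbl2 antibody. With no control library analysed here either, how far a peak depends on Ruvbl2 was not tested. Lists of 4 to 6 marker genes were counted beside the sum of the shares listed among all genes of like length. Stem cell genes gave 1, 2, 2 and 2 of 6 in HSC 1, HSC 2, LSC 1 and LSC 2, beside sums of 2.14, 2.56, 2.29 and 2.57, with Procr, Slamf1 and Ly6a listed in no library and Mecom, a gene of 558.5 kb, in all 4. Granulocyte-monocyte genes gave 4, 4, 3 and 4 of 6, beside 0.801, 1.56, 0.832 and 1.54. B cell genes gave 2, 1, 3 and 2 of 4, beside 1.60, 1.84, 1.67 and 1.84, and T cell genes 0, 0, 2 and 1 of 4, beside 0.997, 1.67, 1.07 and 1.66. A peak is not expression, and the sorted identities cannot be checked from these lists.

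The promoters that the peaks covered come first, because they show the sequence to which the values below refer. RefSeq promoters of GRCm38.p6, from 250 bp before to 50 bp after a gene's start, were matched for 22 members, 10 erythroid and 12 megakaryocyte. The whole promoter lay inside a peak at Klf1, Hemgn and Itga2b in HSC 2, at Gp6 in LSC 2 and at Treml1 in HSC 1. The first 4 of these genes are printed, followed by Alas2 and Hba-a1, whose promoters hold the GATA letters and were touched by no peak in any library. Each is written 5′ to 3′ along the gene. Capitals mark AGATAA or TGATAA and CACACCC on either strand, and the first 250 bases precede the gene's start.
Klf1, chr8:84901732-84902031, plus strand, inside a peak of fold 17.6: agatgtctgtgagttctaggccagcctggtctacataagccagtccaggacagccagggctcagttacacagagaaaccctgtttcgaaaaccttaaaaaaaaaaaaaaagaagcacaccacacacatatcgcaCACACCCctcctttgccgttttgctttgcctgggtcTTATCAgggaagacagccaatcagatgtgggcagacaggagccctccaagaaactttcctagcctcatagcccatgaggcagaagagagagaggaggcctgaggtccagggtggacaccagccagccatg
Hemgn, chr4:46404134-46404433, minus strand, inside a peak of fold 11.6: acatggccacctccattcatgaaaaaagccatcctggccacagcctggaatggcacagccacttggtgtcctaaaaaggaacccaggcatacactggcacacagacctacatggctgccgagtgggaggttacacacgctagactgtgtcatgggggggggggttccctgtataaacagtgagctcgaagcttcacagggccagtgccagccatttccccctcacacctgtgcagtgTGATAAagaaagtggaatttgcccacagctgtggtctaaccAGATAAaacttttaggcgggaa
Itga2b, chr11:102469834-102470133, minus strand, inside a peak of fold 10.7: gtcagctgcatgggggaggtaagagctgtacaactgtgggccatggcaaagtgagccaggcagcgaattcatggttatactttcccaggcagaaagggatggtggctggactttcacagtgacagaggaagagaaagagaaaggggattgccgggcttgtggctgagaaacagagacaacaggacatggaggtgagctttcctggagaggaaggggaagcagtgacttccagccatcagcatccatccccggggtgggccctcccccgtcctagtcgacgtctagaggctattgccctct
Gp6, chr7:4397695-4397994, minus strand, inside a peak of fold 11.4: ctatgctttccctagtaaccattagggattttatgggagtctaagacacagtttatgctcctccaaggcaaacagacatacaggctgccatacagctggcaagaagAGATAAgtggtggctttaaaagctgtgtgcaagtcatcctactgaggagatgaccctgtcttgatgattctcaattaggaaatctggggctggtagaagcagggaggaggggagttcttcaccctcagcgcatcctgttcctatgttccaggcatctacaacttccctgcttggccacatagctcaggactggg
Alas2, chrX:150547167-150547466, plus strand, no peak: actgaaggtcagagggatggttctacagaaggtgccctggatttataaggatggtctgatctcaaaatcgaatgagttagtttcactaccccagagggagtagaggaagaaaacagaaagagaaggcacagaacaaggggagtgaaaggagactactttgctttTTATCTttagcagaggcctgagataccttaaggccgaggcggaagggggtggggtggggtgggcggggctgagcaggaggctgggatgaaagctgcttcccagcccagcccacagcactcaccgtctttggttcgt
Hba-a1, chr11:32283422-32283721, plus strand, no peak: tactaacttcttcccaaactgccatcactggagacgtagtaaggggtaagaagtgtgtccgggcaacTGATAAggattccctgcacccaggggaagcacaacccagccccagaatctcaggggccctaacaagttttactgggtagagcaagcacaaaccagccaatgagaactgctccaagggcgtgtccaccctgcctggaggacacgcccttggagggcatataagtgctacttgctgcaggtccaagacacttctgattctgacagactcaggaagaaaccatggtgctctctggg

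The GATA letters were present in the promoters printed for Klf1, Hemgn, Gp6, Alas2 and Hba-a1 and not in that of Itga2b. Among the 12 erythroid promoters in the table, which belong to 10 genes because Tfr2 has 3 of them, 9 (75%) held AGATAA or TGATAA. Megakaryocyte promoters held it in 6 of 12 cases (50%), and it was found in 18.6% of all 32851 promoters of the same length. CACACCC was found in 4 erythroid promoters, at Gata1, Hbb-bs, Klf1 and Tfr2, in 0 megakaryocyte promoters and in 7.95% of all promoters. The ETS letters CCGGAA, searched in the same way on both strands, were found in 0 erythroid promoters, in the Pf4 promoter and in 14.9% of all promoters. No other ETS letters were searched, so a promoter without CCGGAA may still hold an ETS site. TGANTCA, the core shared by NF-E2 and AP-1 sites, occurred at Hbb-bs, F2rl2, Mpig6b, Ppbp and Selp and in 7.81% of all promoters. These matches describe the letters in the window and were set beside the peaks without a test.

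Peaks on these promoters were few. A listed peak touched 1 of the 10 erythroid promoters' genes, Klf1, in HSC 2, and none in the other 3 libraries. It touched 0 of 12 megakaryocyte genes in each of the 4 libraries. Among 17492 protein-coding genes with a promoter in the table, the shares were 6.28% and 20.6% in HSC 1 and HSC 2 and 6.87% and 20.8% in LSC 1 and LSC 2. Peaks of any strength touched promoters of 0, 3, 0 and 1 erythroid genes and of 1, 2, 0 and 1 megakaryocyte genes, in that order, beside 14.9%, 37.1%, 18.3% and 35% of all genes. The erythroid genes touched were Klf1, Hemgn and Tfr2, and the megakaryocyte genes Selp, Itga2b, Gp6 and Treml1. Of the 9 erythroid promoters with a GATA match, 2 had a peak of any strength in at least 1 library, at Klf1 and Hemgn. The 8 members without a promoter in the table, Nfe2 and Slc4a1 among them, are outside these counts. Of these, Nfe2 had a listed peak across its higher-coordinate end in each library.

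**Figure D1:**
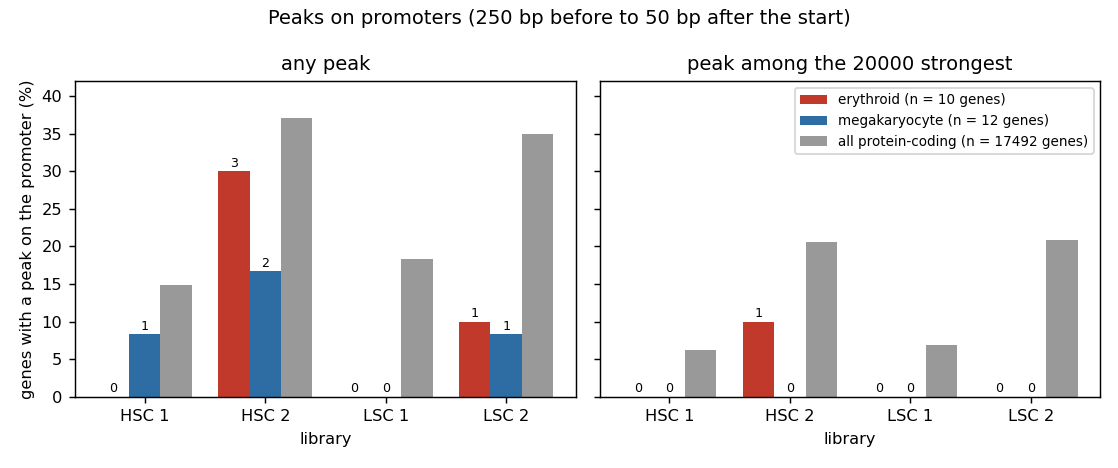
Share of genes (y axis, percent) with a peak on the promoter in each library (x axis), for any peak on the left and for the 20000 strongest on the right, with the number of member genes above each coloured bar. Only the 10 erythroid and 12 megakaryocyte genes with a promoter in the table are counted. The single listed promoter among them, Klf1 in HSC 2, stands beside grey bars of 6.28% to 20.8% for all protein-coding genes.

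Counted over the whole gene and its flanks, members were listed at shares near that of all genes, which is therefore no result about these genes. Of the 15 erythroid genes, 4 in HSC 1, 6 in HSC 2, 5 in LSC 1 and 6 in LSC 2 were listed. Megakaryocyte genes gave 3, 6, 3 and 7 of 15 in the same order. The share of all protein-coding genes was 30.2% and 41.2% in HSC and 32.3% and 41.2% in LSC, which comes to 4.53, 6.19, 4.85 and 6.17 of 15 genes. Long genes were listed more often, in 14.0% of genes under 5 kb and 64.3% of genes of 60 kb and over as the mean of the 4 libraries. The median length was 14.6 kb for the erythroid and 8.12 kb for the megakaryocyte genes, against 17.2 kb for all. When each member was given the share of its own length class, the sums were 3.55, 5.58, 3.80 and 5.55 for the erythroid and 3.85, 5.60, 4.10 and 5.58 for the megakaryocyte genes. The counts lay within 1.5 genes of these sums in every library.

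**Figure D2:**
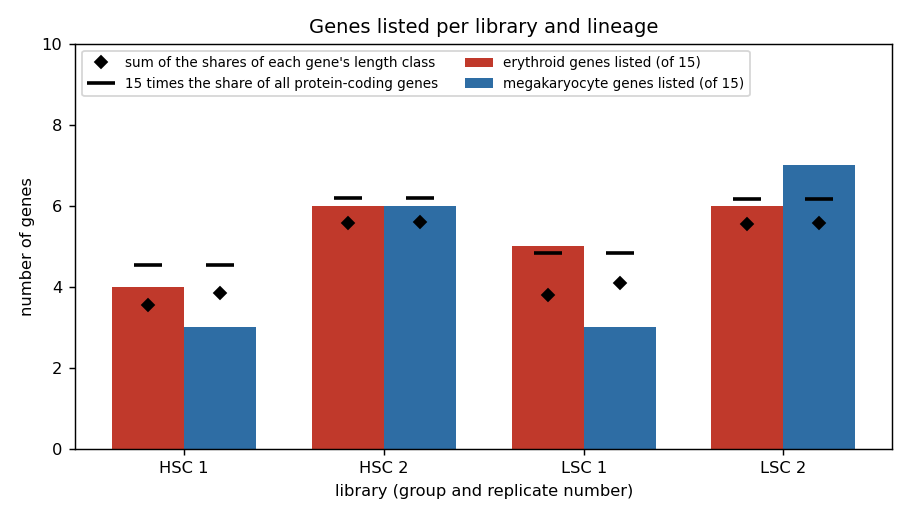
Number of erythroid (red) and megakaryocyte (blue) genes listed in each library, out of 15 each, with diamonds for the sum of the shares of each gene's length class and dashes for 15 times the share of all protein-coding genes. Bars range from 3 to 7 genes and lie close to the diamonds in every library.

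The number of listed peaks was also counted over the whole of the erythroid and megakaryocyte windows, which spanned 415.8 kb and 401.7 kb, and is given without a test. Erythroid windows held 8, 9, 9 and 8 listed peaks in HSC 1, HSC 2, LSC 1 and LSC 2, and megakaryocyte windows held 3, 9, 3 and 15. The erythroid density was thus 1.92 to 2.16 listed peaks per 100 kb in every library. The megakaryocyte density was 0.747 in both replicate 1 libraries and 2.24 and 3.73 in the replicate 2 libraries, and was thus higher at replicate 2 in HSC and LSC alike. Of the 15 listed peaks in LSC 2, Selp held 4 and Itgb3 and Vwf 3 each, and of the erythroid peaks Nfe2 held 3 in every library. All protein-coding windows held 1.02, 1.32, 1.09 and 1.32 per 100 kb. Genes of up to 2390 kb enter that value, against 176 kb at most among the members. The densities were not matched for gene length, so the gap between them is not a result about the members. The median rank of a gene's strongest peak, with genes that had no peak counted as last, was 42407, 28745, 118560 and 33036 for erythroid genes and 67891, 93355, 98764 and 22504 for megakaryocyte genes. For all protein-coding genes it was 56827, 32132, 49930 and 31379. These ranks belong to lists of unequal length and are read within a library only. The erythroid median was weaker than that of all genes in LSC 1 and, by little, in LSC 2. The megakaryocyte median was weaker in every library but LSC 2. Neither was matched for gene length.

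**Figure D3:**
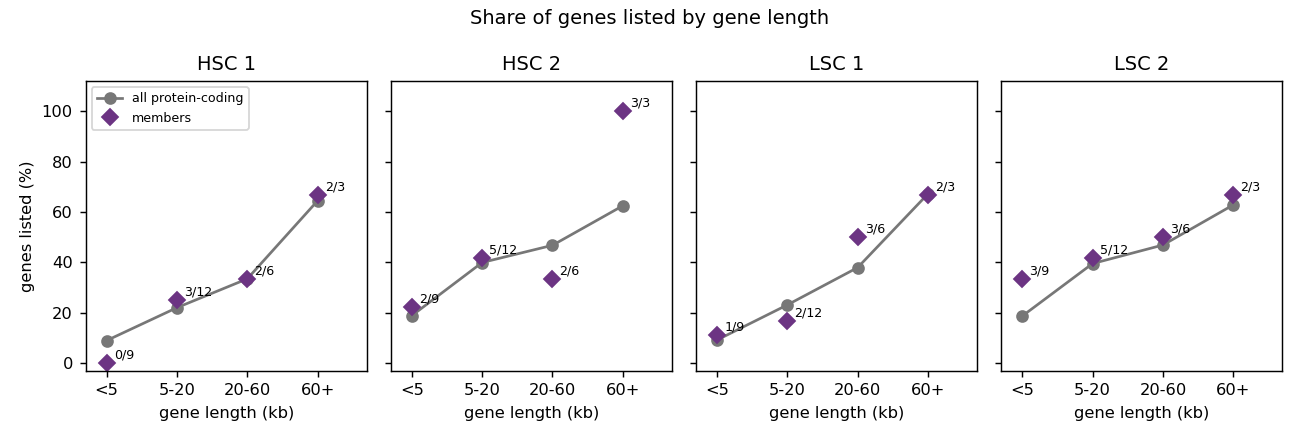
Share of genes listed (y axis, percent) against gene length class (x axis, kb) in each library, for all protein-coding genes (grey line) and the 30 members (diamonds, with listed over total). The line climbs with length in each library, and the classes of 3 to 12 members scatter around the line.

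Nfe2 carried the strongest peaks of the erythroid regulators and was listed in all 4 libraries. It encodes the haematopoietic subunit of NF-E2, a factor that acts on globin genes and on platelet formation. Its strongest peak had a fold of 135 in HSC 1, 24.0 in HSC 2, 89.5 in LSC 1 and 50.2 in LSC 2. The ranks were 85, 2261, 1271 and 967. All 4 peaks shared a stretch of 261 bp, chr15:103258274-103258534, across the gene's higher-coordinate end at 103258403. No other protein-coding gene had its body or flanks there. The strand of Nfe2 was not available here, so whether this end is the start of the gene was not determined. A further 319 bp inside the gene, at chr15:103254981-103255299, was covered in all 4 libraries with folds of 40.2, 13.1, 12.8 and 26.0, and was listed in all but LSC 1. Nfe2 held 12 listed peaks over the 4 libraries, 3 in each, more than any other member, in a gene of 10.2 kb. Being listed in all 4 was found for 11.3% of protein-coding genes.

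The other erythroid regulators had listed peaks that changed from library to library. At Klf1, the factor of the CACCC boxes, the folds were 14.5, 17.6, 64.8 and 6.99 in HSC 1, HSC 2, LSC 1 and LSC 2, and the gene was listed in HSC 2 and LSC 1. The strongest HSC 2 peak, 2065 bp long, covered the start site. The listed LSC 1 peak had its summit at −756 bp from that site and did not overlap the HSC 2 peak. The unlisted LSC 2 peak, of fold 6.99, did overlap it. Gata1, the X-linked master factor of both lineages, had folds of 19.1, 17.0 and 8.05 in HSC 1, HSC 2 and LSC 2 and no peak in LSC 1. It was listed in HSC 2 alone, by a peak inside the gene. Epor, the erythropoietin receptor, was listed in no library, with folds of 12.4, 11.0 and 14.6 in HSC 2, LSC 1 and LSC 2 and no peak in HSC 1.

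Haemoglobin genes had few peaks, but Hba-a1 and Hbb-bs are short, at 0.815 kb and 1.406 kb. As the mean of the 4 libraries, 14.0% of protein-coding genes under 5 kb were listed. The share of such genes with a peak of any strength was not counted, so the few peaks are no result about globin genes. Hba-a1, an alpha-globin gene, had 1 peak in LSC 2, of fold 15.2 and beyond the gene's end, and none in the other libraries. Hbb-bs, an adult beta-globin gene, had 1 peak in HSC 1, of fold 17.5, in its flank. None of these were listed, nor were Hba-a2 and Hbb-bt, their near-identical neighbours. Reads from such copies may not be placed uniquely, and how the aligner's multiple hits were treated is not given in the sources used here, so a low count at these genes is uncertain. Alas2, the erythroid enzyme that starts haem synthesis, was listed in LSC 2 alone, with a fold of 26.9, and its peaks in HSC 2 and LSC 1 had folds of 5.05 and 10.2. The listed peak lay 13249 bp after the start, inside the window of Apex2 as well. Alas2 and Gata1 are on the X chromosome, which held 2.79% and 2.65% of all peaks in the replicate 1 libraries of HSC and LSC and 4.27% and 3.94% in the replicate 2 libraries. The replicate 1 libraries are also those with Y-chromosome peaks. Of the 20000 strongest peaks, X held 1.59% in HSC 1, 1.555% in LSC 1, 2.31% in HSC 2 and 2.135% in LSC 2. Neither gene was listed at replicate 1, where 30.2% and 32.3% of all protein-coding genes were listed in HSC 1 and LSC 1. Of the 30 members, 19 were listed in neither replicate 1 library, so this is no result about Alas2 and Gata1. The part of X and Y content in it was not tested.

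Genes of the red cell membrane were covered by scattered peaks. Slc4a1, which encodes the anion exchanger band 3, had folds of 22.4 and 11.4 in HSC 1 and HSC 2 and 82.7 and 21.2 in LSC 1 and LSC 2. It was listed in both LSC libraries and in neither HSC library, but its HSC 1 peak ranked 20431, just past the limit, and the listed LSC peaks lay at different places, one with its summit at −731 bp from the gene's lower-coordinate end, outside the gene, and the other with its summit 10825 bp inside. Ank1, the ankyrin that ties band 3 to the spectrin skeleton, spans 175.7 kb and was listed in all libraries but LSC 2, with folds of 33.3, 15.2, 32.9 and 14.8. Of its 6 listed peaks, 0 overlapped a listed peak of another library. Ermap, an erythroid membrane protein of the butyrophilin type, was listed at replicate 2 in both cell types with folds of 18.3 and 30.3, and had a fold of 7.69 in LSC 1 and no peak in HSC 1. The HSC 2 peak of Ermap also touched the window of Zfp691 and had its summit outside the Ermap window. Tfr2, transferrin receptor 2, had folds of 10.7, 8.80, 13.2 and 18.4 and was listed in LSC 2 alone, at rank 19356. Rhag, the ammonium channel of the Rh complex, was listed nowhere, with folds of 18.6, 6.92, 10.2 and 8.89.

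Among the remaining erythroid genes, Car1 had the highest-ranked peak of any member in LSC 1. Car1 encodes carbonic anhydrase 1, and its folds were 31.4, 7.30, 106 and 18.6, with ranks of 10652, 96912, 583 and 18588, so it was listed in all but HSC 2. The 3 listed best peaks of Car1 lay at separate positions in the gene. Car2, a neighbouring carbonic anhydrase gene, had folds of 12.8, 12.7, 6.95 and 9.95 and was listed in HSC 2 alone, at rank 19736. Hemgn, a nuclear protein of blood progenitors, had folds of 39.1 and 11.6 in HSC 1 and HSC 2, none in LSC 1 and 5.08 in LSC 2. Its listed peak, in HSC 1, had its summit at −399 bp from the start site and overlapped the weaker HSC 2 peak that covers the printed promoter. In HSC 2 a peak thus covered the start of Hemgn, and in HSC 1 a peak lay upstream without touching the promoter. Neither LSC library had a peak there, the LSC 2 peak lying 7164 bp after the start. Only the HSC 1 peak reached the listed set, and how many genes share this pattern was not counted.

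Selp led the megakaryocyte adhesion genes and was the other member listed in all 4 libraries. It encodes P-selectin, which is stored in platelet alpha granules and in endothelium. The folds were 35.3 and 24.7 in HSC 1 and HSC 2 and 70.3 and 44.7 in LSC 1 and LSC 2, with ranks of 8011, 2059, 3151 and 1319. A stretch of 412 bp, chr1:164135679-164136090, beginning 20415 bp from the start of the gene, was covered by a peak in every library, but in LSC 1 that peak had a fold of 14.5 and was not listed. The listed LSC 1 peak began further on, at 164136841. The start of Selp had no listed peak.

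**Figure D4:**
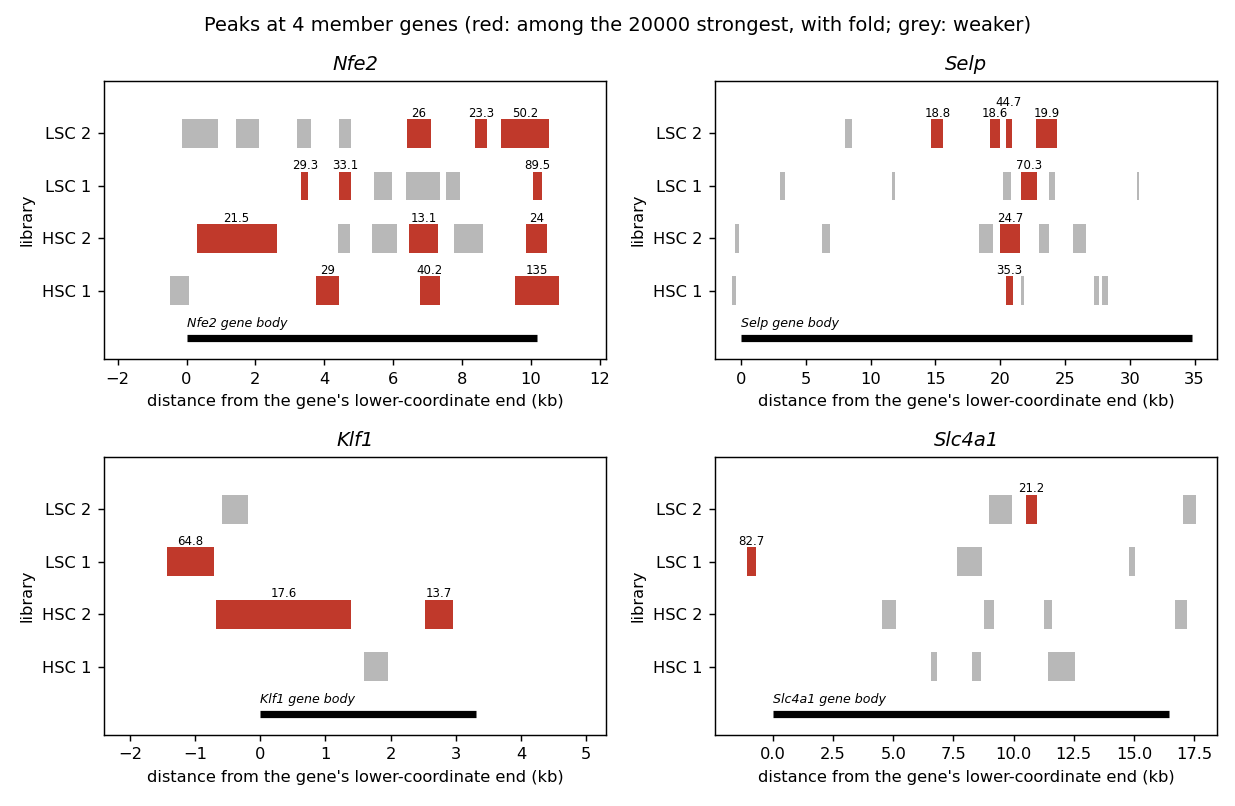
Peaks of the 4 libraries (rows) along Nfe2, Selp, Klf1 and Slc4a1, by distance from the lower-coordinate end of the gene (x axis, kb), with the 20000 strongest in red and labelled by fold, and weaker peaks in grey. The peaks of Nfe2 line up at the right end of the gene in all 4 libraries, and those of Selp cluster inside the gene. The listed peaks of Klf1 and Slc4a1 fall at different places.

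The integrin subunits of the platelet fibrinogen receptor were each listed in 3 libraries, both HSC libraries and LSC 2. Itga2b had folds of 28.7, 13.1 and 21.4 there and no peak at all in LSC 1. Itgb3 had folds of 35.0, 19.5 and 26.3 there, and 22.5 at rank 33248 in LSC 1. In none of these libraries did the strongest peak of either gene overlap the strongest peak of another.
Gp1ba and Gp9 encode subunits of the von Willebrand factor receptor. Gp1ba had folds of 16.7, 15.2, 20.7 and 36.2 and was listed at replicate 2 in both cell types, but in LSC 2 by a peak whose summit lay 1177 bp past the gene and which touched the window of Slc25a11. Gp9 had folds of 9.57, 6.74, 11.9 and 23.1 and was listed in LSC 2 alone. Gp6, a collagen receptor, had a peak in every library, with folds of 7.49 to 14.5, and Clec1b, the podoplanin receptor, only in LSC, with folds of 16.3 and 10.2 at places that also lie in the window of Clec12b. Neither was listed.

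Of the granule and adhesive proteins, Vwf, the von Willebrand factor gene of 133.7 kb, had folds of 21.3 and 19.5 in HSC 1 and HSC 2 and 75.6 and 43.0 in LSC 1 and LSC 2. It was listed in all libraries but HSC 1, where its best peak ranked 23681. The strongest peaks of HSC 2 (rank 4077) and LSC 2 (rank 1480) had summits at 125572988 and 125572957 of chromosome 6, and these peaks overlapped, while that of LSC 1 had its summit at 125581738. Pf4, a platelet chemokine gene of 0.949 kb, had a single peak over all 4 libraries, of fold 28.0 in LSC 2, with its summit 391 bp after the start. Its neighbour Ppbp, another alpha granule chemokine, was the only member with no peak in any library, against 5.67% of all protein-coding genes. Thbs1, thrombospondin 1, had folds of 10.5, 9.15 and 9.95 in HSC 2, LSC 1 and LSC 2 and was not listed.

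Of the 4 signalling and surface genes of the platelet, Plek alone was listed. Plek, the protein kinase C substrate pleckstrin, had folds of 17.2, 13.5, 29.3 and 17.4 and was listed in HSC 2 and LSC 1. A stretch of 345 bp inside the gene, chr11:17002712-17003056, had a peak in every library, but LSC 1 was listed through another peak. Treml1, a platelet granule receptor, Mpig6b, an inhibitory receptor, and F2rl2, a thrombin receptor, were listed in no library, and their highest folds were 18.9, 12.1 and 11.2. Close to the limit, Car2 in HSC 2 and Tfr2 in LSC 2 lay just inside, and Slc4a1 in HSC 1 and Plek in LSC 2, at rank 22504, just outside.

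**Figure D5:**
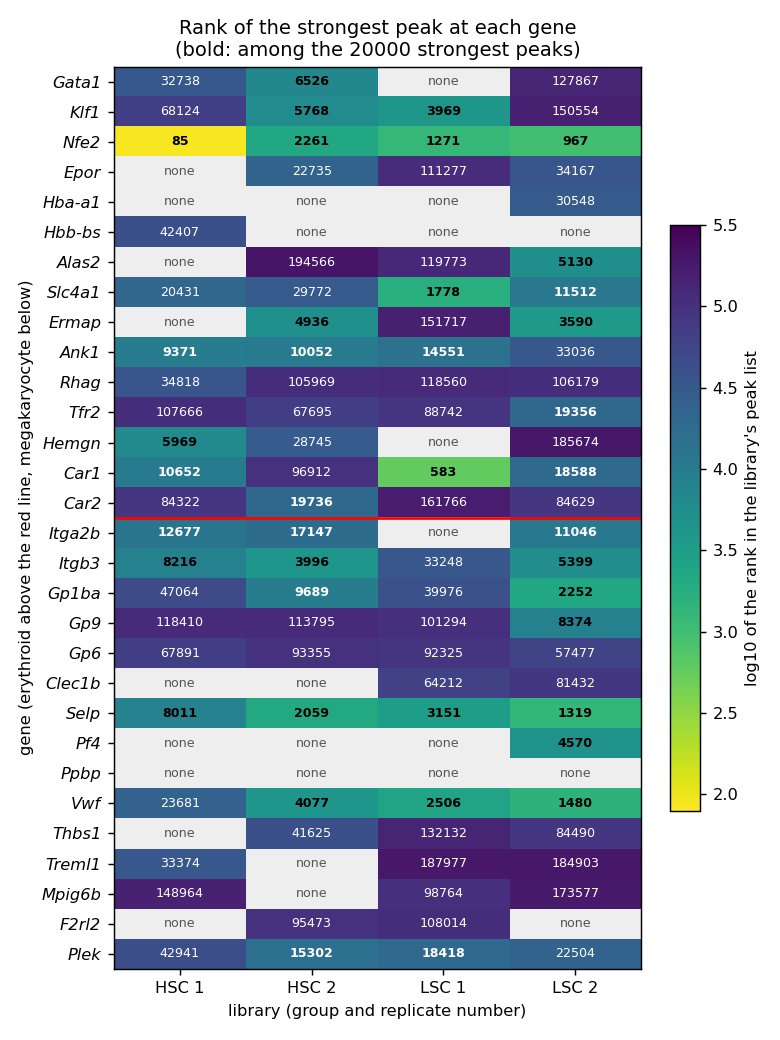
Rank of the strongest peak in the gene body or 1 kb flanks for each of the 30 members (rows, erythroid above the red line) in each library (columns), coloured by log10 rank, with listed ranks in bold and "none" where no peak was found. Nfe2 and Selp are bold in all 4 columns, and 11 genes are bold in none.

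In all, 19 of the 30 members were listed in at least 1 library and 11 in none, which is 36.7% beside 35.6% of all protein-coding genes. Members listed in exactly 1, 2, 3 and 4 libraries numbered 7, 5, 5 and 2, beside 20.9%, 18%, 14.3% and 11.3% of all genes. Erythroid genes were listed in no library in 4 of 15 cases and megakaryocyte genes in 7 of 15. Peaks of any strength were found at 21 and 23 members in HSC 1 and HSC 2 and at 23 and 27 in LSC 1 and LSC 2, where 73%, 85%, 79.4% and 82.4% of all genes had one. In all 4 libraries 15 members had a peak, or 50%, beside 61.2% of all genes. Of the 64 listed peaks of the members, 15 (23.4%) overlapped a peak of any strength in each of the other 3 libraries, and 29 (45.3%) overlapped none. Over all protein-coding genes these shares were 11.8% and 41.9%. Nfe2 and Selp gave 12 of those 15 peaks. The summit lay within 1 kb of an end of the gene for 18.2%, 22.2%, 25% and 21.7% of the members' listed peaks in HSC 1, HSC 2, LSC 1 and LSC 2, or 2 of 11, 4 of 18, 3 of 12 and 5 of 23. All protein-coding genes gave 19.1%, 36.5%, 19.2% and 38.0%, so the members' share was the lower one at replicate 2 and not in LSC 1.

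The comparison of LSC with HSC was made at each replicate number. At replicate 1, Klf1, Slc4a1, Plek and Vwf were listed in LSC and not in HSC, and Hemgn, Itga2b and Itgb3 in HSC and not in LSC. That is 4 and 3 of 30, beside 15% and 12.9% of all protein-coding genes. Ank1, Car1, Nfe2 and Selp were listed in both. At replicate 2, Alas2, Car1, Gp9, Pf4, Slc4a1 and Tfr2 were listed in LSC and not in HSC, and Ank1, Car2, Gata1, Klf1 and Plek in HSC and not in LSC. These 6 and 5 members stand beside 12.4% of all genes in each direction. Ermap, Gp1ba, Itga2b, Itgb3, Nfe2, Selp and Vwf were listed in both. The share of all protein-coding genes listed in both was not counted at either replicate number, so these names are no result about the members.

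Little of this repeated across replicate numbers. Slc4a1 was the one member with a listed peak in LSC 1 and LSC 2 and none in HSC 1 or HSC 2, a pattern of 2.35% of all protein-coding genes, and 0 members had the opposite pattern, which 2.09% of all genes had. Klf1 and Plek went to LSC at replicate 1 and to HSC at replicate 2. How many of all protein-coding genes crossed in this way was not counted, so poor repetition is no result about the members. Over all 30 members the number listed was 7 and 12 in HSC and 8 and 13 in LSC. LSC thus had 1 gene more at each replicate number, while the replicates of a group differed by 5 genes. The mean difference of 1 gene was smaller than that spread, with a two-sided p = 0.667 in the exact permutation test over libraries, for which 2 against 2 allows no p below 0.333. Without HSC 1 or without LSC 2 the difference was −1.5, but then 1 library stands alone in its group and the replicate numbers are unbalanced. For the erythroid genes LSC minus HSC was 1 at replicate 1 and 0 at replicate 2, and for the megakaryocyte genes 0 and 1.

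The same counts were made for other genes of the lineages. Of 30 further erythroid genes, 15 and 10 were listed in HSC 1 and HSC 2 and 13 and 13 in LSC 1 and LSC 2, where the shares of their length classes summed to 9.56, 13.0, 10.2 and 13.0. Those listed in all 4 included Zfpm1, the Gata1 cofactor FOG1, the membrane skeleton genes Sptb and Epb41 and the iron-sulphur gene Isca1. Zfpm1 had folds of 33.3, 55.4, 75.9 and 55.5. Bcl11a, Add2 and Fech were listed in 3 libraries, and Lmo2, Tmod1, Icam4, Aqp1, Abcb10, Trim58 and Bpgm in 2.

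Of 30 further megakaryocyte genes, 13, 14, 15 and 14 were listed in the same order, beside sums of 9.90, 13.3, 10.7 and 13.2. The transcription factor genes Fli1, Runx1 and Mef2c, the integrin activator Fermt3, the granule proteoglycan Srgn and Angpt1 were listed in all 4 libraries. Fermt3 had folds of 55.2, 20.2, 38.8 and 59.9. Gata2, Itga2, Cd9, Nbeal2 and Mafg were listed in 3 libraries, and Tubb1, Rab27b, Mafk, Timp3 and Mmrn1 in 2. The von Willebrand factor receptor genes Gp1bb and Gp5 were listed in none. Several of the genes listed in all 4 are also expressed in stem and myeloid cells, Runx1, Fli1, Mef2c and Srgn among them. Expression was not measured here, and whether it bears on these peaks was not tested.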

How the data were processed

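Ruvbl2 CUT&Tag was measured in 2 HSC and 2 LSC libraries of mouse bone marrow. The submitters' processing notes name FastQC 0.11.5, Bowtie2 2.2.9, MACS2, ChIPseeker and the build mm10. The peak threshold, like read filters and duplicate handling, is not given in the sources used here. The authors deposited 1 narrowPeak list per library, so peaks were called per library. By the narrowPeak layout, the authors gave each peak a fold, which is the ratio of summit pileup to background within the library. They also gave a −log10 p-value, used here for ranking, a −log10 q-value, and a deposited score derived from the q-value.

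Peaks outside the autosomes and sex chromosomes were dropped and the others ranked by −log10 p with Python 3.11.15 and pandas 2.3.3. Ranking by fold gave the same order. Genes came from a RefSeq table of GRCm38.p6, in which 30 of 30 members matched by symbol. The 20000 strongest peaks per library and windows of the gene body with 1 kb flanks were used. The overlap code was checked on simulated peaks. Members and lists were chosen with earlier results of these data known, and motif letters with the promoters in view, so no list was tested. The number of members listed was compared between groups by an exact permutation test. All 30 members were accounted for, with values in every library for those listed in at least 1 library, and other lineage genes were named when listed in at least 2. A few genes listed in no library were named as examples after their values were seen. Values of some other lineage genes are not reported here. Of the 4 libraries none was left out, and read depth is unknown.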

Additional observations from a re-analysis of the deposited data

How the results depend on the processing

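The mean number of members listed per library was 5.25 of 15 for the erythroid and 4.75 of 15 for the megakaryocyte genes. It moved by more than 1.5 times under 2 of 10 alternatives for each. With the full lists it was 12.25 and 11.25, and with windows at the gene ends only 2.25 and 1.75, settings that by construction admit more peaks or less sequence. Leaving out 1 library at a time gave 5 to 5.67 and 4 to 5.33. The difference between LSC and HSC, 1 gene, ranged from 0 with the 40000 strongest peaks to 3 with the full lists over 11 alternatives. It ranged from −1.5 to 3.5 when 1 library was left out, and was −1.5 without HSC replicate 1 and without LSC replicate 2. With the replicate number as a block it was also 1, with an exact two-sided p = 0.5, the smallest that 2 pairs allow. Same-numbered libraries deviated together from their group means in which genes were listed, with r = 0.13 over 21887 genes, which is no evidence from the design that the numbers pair samples. With unknown depth, a gene without a peak may only be too weakly covered.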
